A study of Mus musculus with 10 samples.

Results

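The trypsinogen genes of the mouse pancreas were followed through a series of RNA sequencing libraries that differ in the insulin receptor gene Insr. The group has 7 genes, Prss2, 2210010C04Rik, Try4, Try5, Try10, Prss3 and Prss1, taken by symbol from a table of raw counts per gene. All 7 symbols were found among the 24421 genes of the table. They were picked by name and not by a cut on measured values, but with earlier results of these data known.

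Trypsinogens are inactive precursors of the protein-cutting enzyme trypsin. The acinar cells of the pancreas make them in large amounts, store them in zymogen granules and secrete them into the gut, where enteropeptidase removes a short activation peptide. Trypsin then activates further trypsinogen and most other pancreatic zymogens, and activation that starts inside the pancreas is a known feature of pancreatitis, held in check by inhibitors such as the product of Spink1.

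Each library came from the RNA of a piece of the pancreas tail of 1 female mouse aged 12 weeks. All mice carried Ptf1aCreER, a Cre recombinase that tamoxifen switches on and that is driven by Ptf1a, a transcription factor gene of acinar cells, together with nTnG, a fluorescent reporter that marks nuclei. The groups were Insr WT (Insr w/w, 0 floxed alleles, 3 libraries), Insr Het (Insr w/f, 1 floxed allele, 3 libraries) and Insr KO (Insr f/f, 2 floxed alleles, 4 libraries), named here by label and mouse number, as in KO-2126. A floxed allele is one that Cre can remove, so a deletion would be limited to cells in which the Cre was active, while the tissue piece also holds duct, islet, connective tissue and immune cells. A label counts 1 more WT mouse, which was not analysed here, and mice without the Cre were not analysed either.

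Gene counts per library ranged from 11718559 to 19024351. Insr itself was counted in all 10 libraries, at 21.03 to 40.5 counts-per-million (CPM, scaled with edgeR's TMM factors) in WT and 22.7 to 35.4 CPM in KO, and KO against WT differed by 0.09 on the log2 scale (SE 0.26, adjusted p = 0.864 in edgeR's quasi-likelihood test). A count per gene sums reads over all its exons, so this value does not measure the deletion. WT-2404 stood apart from the other 9 libraries. A list of 25 other digestive enzyme genes took 11.8% of its gene counts, against 49.2% to 66.5% in the others. Its summed fibroblast markers stood at 5332 CPM and its macrophage markers at 1256 CPM, against at most 2246 and 483 CPM elsewhere. The extraction text of its label also names a micro column kit, where those of the other 9 name the kit without that word, and whether its handling differed was not tested. All 6 acinar transcription factor genes of a fixed list had counts in every library, with sums of 55.6 CPM in WT-2404 and 426 to 824 CPM in the other 9. Results that moved most with this library are also given without it.

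The sequence that makes these genes trypsinogens is the activation site, which is shown here because it separates the members from some of their neighbours. The 63-base stretches below are the coding strand, 5′ to 3′, of GENCODE M21 transcripts on GRCm38, with 4 aspartate codons and the lysine codon behind which enteropeptidase cuts in capitals. Try4, Try5 and Prss1 were identical over this stretch.
Prss2: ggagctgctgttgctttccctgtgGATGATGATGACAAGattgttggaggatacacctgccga
Try4, Try5 and Prss1: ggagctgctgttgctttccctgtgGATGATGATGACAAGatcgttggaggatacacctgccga
Try10: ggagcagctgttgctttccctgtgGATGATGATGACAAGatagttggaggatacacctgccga
Prss3: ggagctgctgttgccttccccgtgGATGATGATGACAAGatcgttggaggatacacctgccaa
2210010C04Rik: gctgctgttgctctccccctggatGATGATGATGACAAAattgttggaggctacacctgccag
The run of aspartate codons was 4 long in 6 members and 5 long in 2210010C04Rik, whose lysine codon is also the other one of the pair. No 4 aspartate codons followed by a lysine codon were found in the neighbouring genes 1810009J06Rik, Gm5771 and Gm2663. The neighbour Gm10334, which is not a member here, carried the same 63-base stretch as Prss3.

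All 7 genes lie on chromosome 6 within the T cell receptor beta region, in GENCODE M21 on GRCm38, the assembly also called mm10, which the submitters' processing notes name. They are 2210010C04Rik (chr6:41030268-41035509, minus strand), Try4 (chr6:41302269-41305532, plus), Try5 (chr6:41311233-41316841, minus), Try10 (chr6:41354105-41357914, plus), Prss3 (chr6:41373814-41377678, minus), Prss1 (chr6:41458932-41463786, plus) and Prss2 (chr6:41521787-41525079, plus). The coding sequence of 2210010C04Rik spans 744 bases and those of the other members 741.

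The members are close copies of one another, which bears on every count below. Try4 and Try5 were identical at 97.4% of 741 aligned bases, Prss1 and Prss3 at 96.4%, and Try4 and Try10 at 95.4%. Prss2 and 2210010C04Rik, the genes with the highest counts, were the most distinct. Of all 50-base windows of a coding sequence, 100% in 2210010C04Rik and 91.3% in Prss2 occurred in no other gene of the family. The share was 71.1% in Try10, 44.1% in Try5, 42.6% in Prss1, 31.1% in Try4 and 26.2% in Prss3. Values of these last 4 genes are therefore uncertain to the extent that shared reads were split, lost or assigned to a copy. Reads listed in the table as ambiguous made up 0.101% to 0.584% of all counts, the most in WT-2404.

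In CPM and per base of coding sequence, the levels fell into 3 tiers, with Prss2 and 2210010C04Rik on top, then Try4 and Try5, then Try10, Prss3 and Prss1. This order of tiers held in all libraries but WT-2404, where Try5 lay between Prss2 and 2210010C04Rik. Per kilobase of coding sequence, the mean over the libraries was 61574 CPM for Prss2, an anionic trypsinogen, and 62282 CPM for 2210010C04Rik, which encodes a cationic trypsinogen. On this measure Prss2 was the higher of the pair in 5 of 10 libraries, so their order was not settled. It also depends on the length used, since counts sum reads over all exons. The transcript of 2210010C04Rik has 2142 bases, against 815 for Prss2 and 801 for Try4. Per base of transcript 2210010C04Rik would stand lower relative to both, which was not computed. Try4 followed at 25099 CPM per kilobase and Try5 at 11356, with Try4 above Try5 in 9 of 10 libraries. Try10 came next at 347 CPM per kilobase, then Prss3 at 64.3 and Prss1 at 6.02, in that order in every library. The gene that carries the symbol Prss1, the name of the main cationic trypsinogen in humans, was thus the least counted of the 7.

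**Figure D1:**
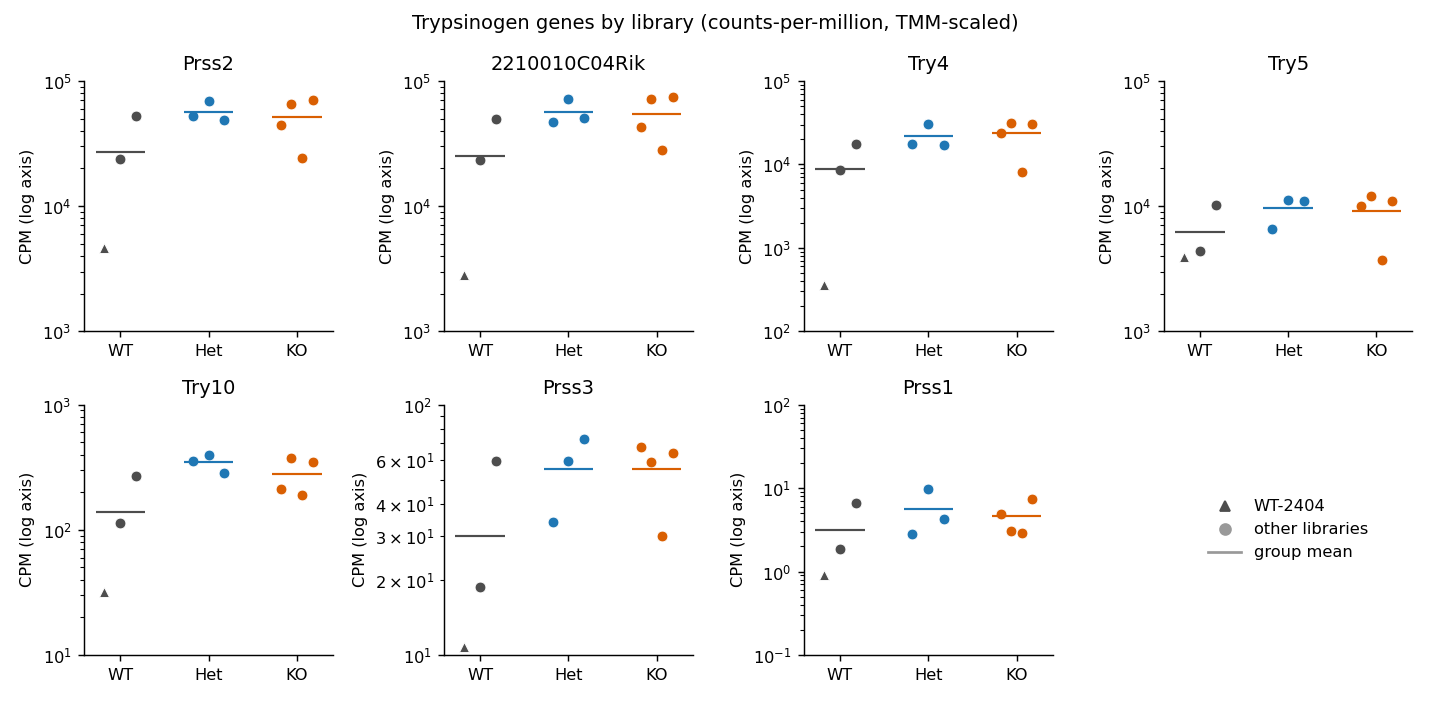
CPM (TMM-scaled, log axis) of each trypsinogen gene by library, with WT, Het and KO on the horizontal axis, the triangle for WT-2404, circles for the other libraries and a line for the group mean. WT-2404 is the lowest library for every gene except Try5, where KO-2124 is lower at 3703 CPM.

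Prss2 stood at 4654, 23879 and 52526 CPM in WT-2404, WT-1860 and WT-2067. In Het-2066, Het-1770 and Het-2042 it stood at 52363, 69801 and 48365 CPM, and in KO-2079, KO-2070, KO-2124 and KO-2126 at 44310, 65375, 24312 and 70681 CPM. The 3 groups overlapped, with WT-2404 low and the highest WT library within the range of the others. The KO mean was 51169 ± 21220 CPM (SD, n = 4) and the WT mean 27020 ± 24090 CPM (SD, n = 3). The log2 fold change of KO against WT was 0.92 (SE 0.81), which did not pass the test, with an edgeR adjusted p of 0.504.

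2210010C04Rik followed the same pattern. Its levels were 2806, 23283 and 49333 CPM in the WT libraries, 47203, 72482 and 50927 CPM in Het, and 43197, 71484, 28334 and 74326 CPM in KO, in the same mouse order. The groups overlapped through WT-2067 and KO-2124. KO against WT stood at 1.11 on the log2 scale (SE 0.87, edgeR adjusted p = 0.444).

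Try4, an anionic trypsinogen gene, varied most of all members when WT-2404 was included, with 358, 8574 and 17413 CPM in WT, 17720, 30670 and 16864 CPM in Het, and 23714, 31734, 8127 and 30810 CPM in KO. Only WT-2404 fell far below the rest, and the groups overlapped. Its highest library was 88.5 times its lowest. Without WT-2404 this was 3.90 times, where Prss1 had the widest span at 5.26 times. The log2 fold change of KO against WT was 1.43 (SE 0.96, edgeR adjusted p = 0.374), the largest estimate among the 7.

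Try5 varied least over all 10 libraries, although its coding sequence is almost that of Try4. Its levels were 3941, 4387 and 10187 CPM in WT, 6554, 11270 and 11006 CPM in Het, and 9947, 12095, 3703 and 11058 CPM in KO. WT-2404 was not its lowest library. The highest library was 3.27 times the lowest with or without WT-2404. Without that library Prss2 (2.96 times) and 2210010C04Rik (3.19 times) spanned less. KO against WT for Try5 stood at 0.58 on the log2 scale (SE 0.58, edgeR adjusted p = 0.562).

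Try10 was the member whose WT and Het libraries did not overlap. It stood at 32.0, 114 and 267 CPM in WT, at 354, 397 and 285 CPM in Het, and at 212, 372, 189 and 350 CPM in KO. All 3 Het libraries were above all 3 WT libraries, while 2 KO libraries lay below WT-2067. Het against WT stood at 1.33 on the log2 scale (SE 0.59), the only member with an unadjusted p under 0.05 (0.0432), and the edgeR adjusted p was 0.240.

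Prss3 and Prss1 were low. Prss3 ranged from 10.7 to 59.8 CPM in WT, from 34.0 to 73.3 CPM in Het and from 29.8 to 67.8 CPM in KO. Prss1 ranged from 0.919 to 6.68 CPM in WT, from 2.81 to 9.78 CPM in Het and from 2.90 to 7.47 CPM in KO. For both genes the 3 ranges overlapped.

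Set against the whole table, no trypsinogen gene passed an adjusted p of 0.05 in any comparison. For KO against WT the count was 0 of 7, where edgeR called 0% of the 13688 genes tested. At an unadjusted p under 0.05 it was 0 of 7, against 23.5% of all genes, and 0 of 7 had separate ranges, against 6.74% of all genes that were higher. DESeq2 called 7.03% of genes and again none of the 7, with a smallest adjusted p of 0.191 for Try10. For Het against WT, edgeR called 0% and none of the 7, and DESeq2 called 2.27% of genes and none of the 7. At an unadjusted p under 0.05 the count was 1 of 7, Try10, against 19.8% of all genes. Try10 was also the 1 member with separate ranges, against 11.3% of all genes that were higher.

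The estimates had one sign all the same. All 7 fold changes were above 0 for KO against WT, as were 51.8% of all genes, with a median of 0.92 (0.03 over all genes) and a range from 0.58 to 1.43. With library size alone in place of TMM, which moved the median of all genes to -1.17, Try5 (-0.50) and Prss1 (-0.12) were below 0, and both were above that median. For Het against WT all 7 were above 0, as were 50.3% of all genes, with a median of 1.07. There too Try5 turned to -0.43 with library size alone, under which the median of all genes was -1.36. Both comparisons share the WT libraries, so their likeness is not a second measurement. Without WT-2404 the medians were 0.47 and 0.58, and no member was called. Without WT-2067 they were 1.92 and 2.06, and 2 members were called in each comparison. Prss3 then stood at 1.92 (edgeR adjusted p = 0.0228) and Try10 at 1.96 (0.0302) for KO against WT, where 1933 of 14172 genes were called. For Het against WT, Prss3 stood at 1.93 (edgeR adjusted p = 0.0342) and Try10 at 2.26 (0.0350), with 1158 genes called.

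**Figure D2:**
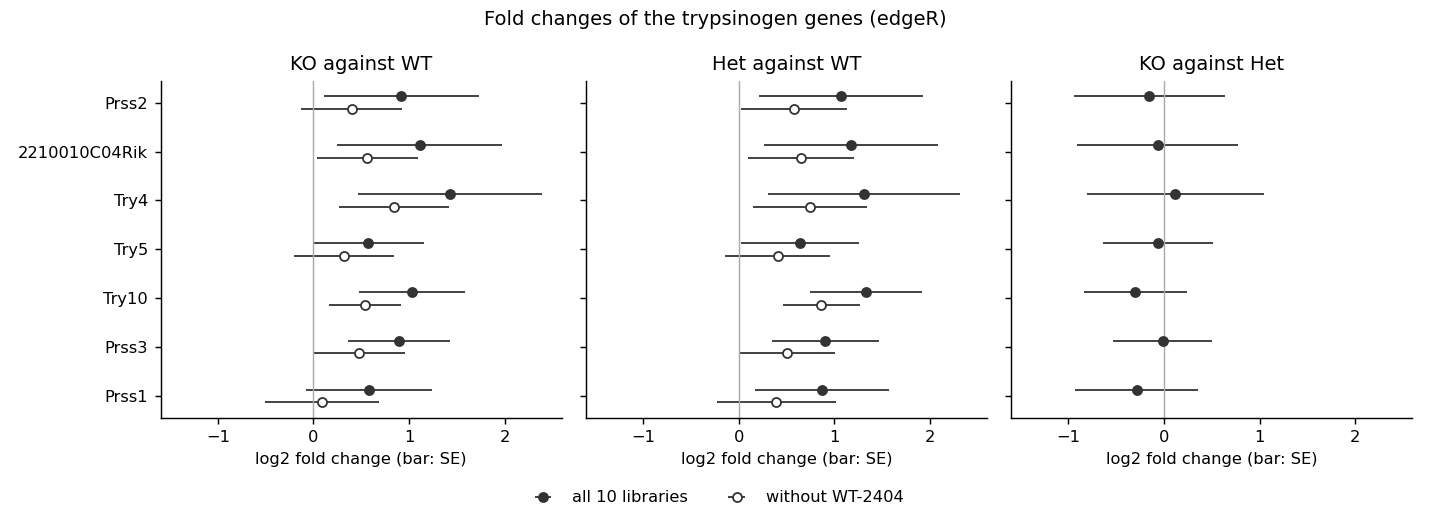
Log2 fold change of each trypsinogen gene (horizontal axis, bars for the standard error) in the 3 comparisons, from edgeR fits over all 10 libraries (filled) and, for the comparisons with WT, without WT-2404 (open). All 7 estimates lie above 0 in both comparisons with WT, between 0.58 and 1.43 for KO, and those without WT-2404 lie closer to 0.

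KO and Het libraries were close to each other. KO against Het ranged from -0.30 (Try10) to 0.12 (Try4) on the log2 scale, with a median of -0.07, and the smallest unadjusted p in edgeR was 0.587, for Try10. The call was 0 of 7, with 0% of genes called by edgeR, 0% by DESeq2 and 0.752% at an unadjusted p under 0.05. Only Try4 was above 0, as were 51.4% of all genes. No member had separate ranges, against 1.3% of all genes that were higher in KO and 1.16% that were lower. Standard errors of 0.52 to 0.92 leave room for differences of the size seen against WT.

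Other products of acinar cells stood in the same direction. Of the 25 other digestive enzyme genes, 21 were tested, and all 21 had a log2 fold change above 0 for KO against WT, with a median of 1.25. All 12 zymogens that trypsin activates, among them Cpa1 (a carboxypeptidase), were above 0, with a median of 1.23, and 0 of them passed the adjusted threshold. Without WT-2404 these medians were 0.69 and 0.66, again with all 21 and all 12 above 0. With the mean log2 CPM of the other enzymes as a covariate, the median of the trypsinogen genes was -0.12 for KO against WT and -0.08 for Het against WT. Markers of other cell types did not share 1 direction for KO against WT. Fibroblast markers had a median of -1.91 (7 of 8 below 0), macrophage markers of -1.65 (7 of 7), ductal markers of -1.24 (5 of 8) and lymphoid markers of -0.95 (8 of 8). Islet markers had a median of 0.79 (7 of 8 above 0) and adipocyte markers of 0.60 (5 of 5). Without WT-2404 the medians were -1.22 for fibroblast, -0.88 for macrophage, -1.02 for ductal, -1.11 for lymphoid, 0.29 for islet and 0.51 for adipocyte markers, and no marker was called with or without it. Summed fibroblast markers ranged from 1460 to 5332 CPM in WT, 556 to 1154 CPM in Het and 494 to 1321 CPM in KO. Macrophage sums ranged from 322 to 1256, 178 to 257 and 95.6 to 362 CPM, and ductal sums from 717 to 1152, 340 to 581 and 348 to 574 CPM. None of the fibroblast, macrophage or ductal markers was at 0 in any library. The part of these cells in the trypsinogen values was not tested, and in bulk tissue fewer acinar cells and less RNA per acinar cell cannot be told apart.

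Ratios within the acinar products showed what the CPM values did not. The 7 trypsinogen genes together took 4.17%, 9.41% and 11.4% of gene counts in WT-2404, WT-1860 and WT-2067, 10.3% to 11.8% in Het and 8.80% to 11.4% in KO. The Wilson 95% interval of each share was at most 0.0360 points wide, counting error only. Per 100 counts of other digestive enzymes, however, trypsinogen counts were highest in WT, with 35.5, 19.1 and 18.9. They were 16.8, 18.2 and 17.9 in Het and 17.9, 17.2, 16.3 and 16.8 in KO. On this measure each WT library was above each Het and KO library, also with WT-2404 left out. The separation was lost under both other forms of the ratio. With only the zymogens that trypsin activates as the denominator, the log2 ratio was -1.88 in KO-2079, above -1.94 in WT-1860 and -1.89 in WT-2067. As a difference of mean log2 CPM over genes, WT-1860, at -1.78, lay below 2 Het and 2 KO libraries. The mean log2 ratio of the WT libraries was -2.10 ± 0.52 (SD, n = 3). That of the Het libraries was -2.50 ± 0.06 (SD, n = 3), and that of the KO libraries -2.55 ± 0.06 (SD, n = 4). The difference of KO minus WT was -0.46, and -0.16 without WT-2404. That of Het minus WT was -0.41, and -0.11 without that library. As a score over the members it was given no test.

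**Figure D3:**
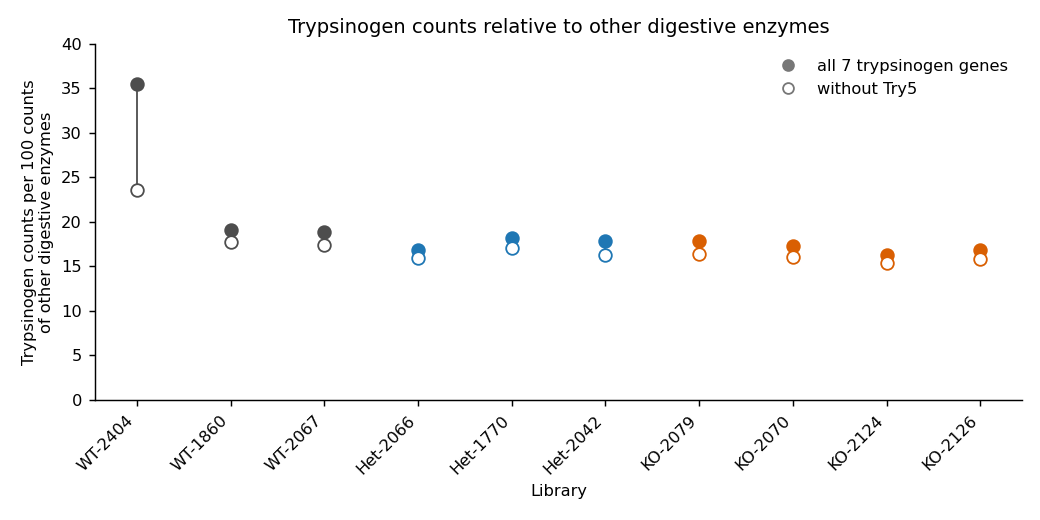
Trypsinogen counts per 100 counts of other digestive enzymes in each library, for all 7 genes (filled) and without Try5 (open). WT-2404 stands at 35.5 with Try5 and 23.6 without it, and the 3 WT libraries lie above the 7 others in both series.

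Prss2 showed that order in full. Per 1000 counts of other digestive enzymes it had 140, 75.8 and 76.4 counts in WT-2404, WT-1860 and WT-2067, 70.9, 68.7 and 67.8 in Het, and 65.3, 62.3, 61.4 and 63.4 in KO. With this denominator the 3 groups did not overlap, with Het between WT and KO. Relative to the zymogens that trypsin activates, however, Prss2 was higher in KO-2079 than in Het-1770, so Het and KO overlapped. Prss2 and these zymogens took 3.94% and 39.7% of gene counts in KO-2079, and 4.44% and 46.2% in Het-1770. How many of all genes show such an order was not computed. 2210010C04Rik had 84.3, 73.9 and 71.7 in WT, 64.0 to 71.4 in Het and 63.7 to 71.5 in KO. Its WT libraries also lay above the rest, though WT-2067 (71.7) and KO-2124 (71.5) were almost level. The share of all genes with WT above the rest on this scale was not computed either. The other 5 members overlapped between the groups. Try4 had 10.8 to 27.2 in WT, 23.7 to 30.2 in Het and 20.5 to 35.0 in KO.

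The makeup of the family was then compared, as the share of all trypsinogen counts that each gene took. Prss2 took 39.4%, 39.6% and 40.5% in WT, 42.1%, 37.8% and 37.9% in Het and 36.5%, 36.1%, 37.6% and 37.7% in KO. The KO libraries lay below all WT and all Het libraries. The KO mean of 37.0% ± 0.809 (SD, n = 4) stood below the WT mean of 39.8% ± 0.553 (SD, n = 3), a difference of -2.87 points, and below the Het mean of 39.3% ± 2.48 (SD, n = 3), a difference of -2.32 points. The difference from Het rests on Het-2066, without which it was -0.886 points, and the highest KO library (37.74%) was just under the lowest Het library (37.79%). The exact permutation test (two-sided) gave p = 0.0571 for each, the smallest that 4 against 3 libraries can give, so no share could pass 0.05. Shares were compared in 21 tests, 7 genes in 3 comparisons, and these 2 were the ones with separate ranges. Without any difference, ranges separate with probability 0.0571 for 4 against 3 libraries and 0.1 for 3 against 3. A number of 2 among 21 is near that rate, so the lower Prss2 share in KO is a description only.

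2210010C04Rik took 23.8%, 38.6% and 38.0% in WT, 38.0% to 39.9% in Het and 35.6% to 43.8% in KO. Try4 took 3.04%, 14.2% and 13.4% in WT, 13.2% to 16.6% in Het and 12.6% to 19.5% in KO, with an exact permutation p of 0.171 for KO against WT. Both genes were low in WT-2404 and otherwise overlapped between the groups. Try10, Prss3 and Prss1 each took under 1% in every library, with WT means of 0.222%, 0.0560% and 0.00534%.

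Try5 in WT-2404 was the largest departure from the common makeup. There it took 33.4% of trypsinogen counts, against 7.28% and 7.85% in the other WT libraries, 5.28% to 8.63% in Het and 5.72% to 8.19% in KO. Per 1000 counts of other digestive enzymes it had 118 counts in WT-2404 and 8.88 to 15.4 in the other 9 libraries. Relative to the median of the other 9 libraries, CPM in WT-2404 was 0.0202 for Try4, 0.0569 for 2210010C04Rik, 0.0889 for Prss2, 0.112 for Try10, 0.181 for Prss3, 0.217 for Prss1 and 0.387 for Try5. The members thus differed in how low they were in the library with few acinar products. Try4 had the smallest value and Try5 the largest, so over all members the values did not follow the tiers. With Try4 and Try5 set aside, the members of the lowest tier, Try10, Prss3 and Prss1, had larger values than Prss2 and 2210010C04Rik. Within that pair the order was the other way, as 2210010C04Rik had the lower median (49333 against 52363 CPM) and the smaller value. Try4 and Try5 share most of their sequence, as do Prss1 and Prss3. How reads were assigned therefore bears on the values of these genes, and that was not tested.

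**Figure D4:**
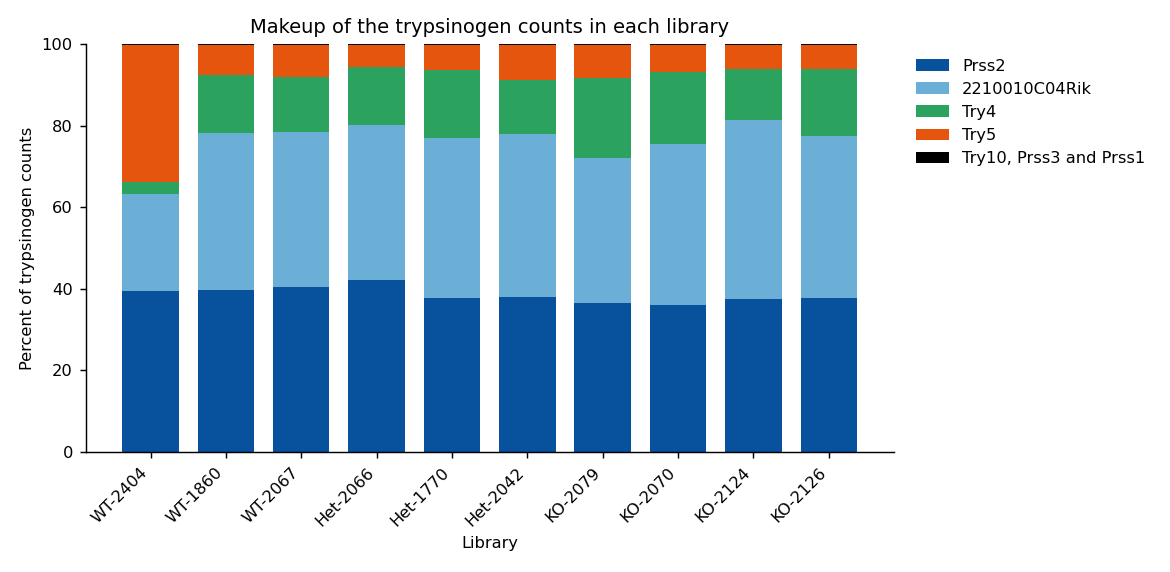
Share of all trypsinogen counts (percent, vertical axis) taken by each gene in each library, stacked to the full total. WT-2404 has a Try5 share of 33.4% where the other 9 libraries have 5.28% to 8.63%, and Prss2 lies between 36.1% and 42.1% throughout.

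The table holds 5 further genes of the same cluster, listed for their likeness to trypsinogens and counted at far lower levels. Gm2663 had 2833 counts in WT-2404 and 9 to 253 in the other 9 libraries, and 1810009J06Rik had 593 against 8 to 71. In CPM these were 8.70 and 4.34 times the median of the other libraries, the reverse of the 7 trypsinogen genes. Their coding sequences were 99.5% identical to each other. In neither were 4 aspartate codons followed by a lysine codon found, and other forms of the site were not searched. For KO against WT, Gm2663 stood at -2.42 on the log2 scale (SE 0.71, edgeR adjusted p = 0.121), and at -1.22 without WT-2404, while DESeq2 gave an adjusted p of 0.0130. Gm5409, annotated as a pseudogene, had 8 to 14 counts in WT, 11 to 31 in Het and 11 to 19 in KO. Its CPM was higher in all KO libraries than in all WT libraries (log2 fold change 1.59, SE 0.55, edgeR adjusted p = 0.132), as for 6.74% of all genes. No gene of this list passed in edgeR over all 10 libraries. Without WT-2067, Gm5771 did in both comparisons with WT (1.70 and 2.20 on the log2 scale) and Gm5409 in Het against WT (2.46). That fit called 13.6% of all genes for KO against WT and 8.17% for Het against WT. Gm5771 and Gm10334, at 97.6% identity to Prss1 and 99.1% to Prss3, had estimates of 0.34 and 0.51 for KO against WT with all libraries.

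Genes that act on trypsinogen or trypsin were read from a list. Spink1, the trypsin inhibitor of acinar cells, had 182, 660 and 988 CPM in WT, 1412, 1579 and 1346 CPM in Het and 1204, 1829, 1266 and 1569 CPM in KO. All 7 Het and KO libraries were above all WT libraries, as for 11.3% of all genes in Het and 6.74% in KO. The log2 fold change of KO against WT was 1.27 (SE 0.49, edgeR adjusted p = 0.157, DESeq2 adjusted p = 0.0418), and 0.82 without WT-2404. DESeq2 called 7.03% of all genes in this comparison. Serpini2, a pancreatic serpin, stood at 1.11 (SE 0.75) with overlapping groups, and at 0.54 without WT-2404. The table holds 8 inhibitor genes, of which only Spink1, Serpini2 and A2m passed the filter on low counts. A2m, which encodes a general protease inhibitor of blood plasma, stood at -2.77 (SE 0.87) with at most 18.6 CPM, and at -1.54 without WT-2404.

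The cathepsins, proteases that can process trypsinogen, had estimates below 0 for KO against WT over all 10 libraries. Ctsb, cathepsin B, which can activate trypsinogen inside acinar cells, had 790, 320 and 238 CPM in WT, 138, 207 and 209 CPM in Het, and 216, 133, 202 and 134 CPM in KO. All Het and KO libraries were below all WT libraries, as for 13.5% of all genes in Het and 9.17% in KO. KO against WT stood at -1.39 (SE 0.39, edgeR adjusted p = 0.116, DESeq2 adjusted p = 0.0146), and at -0.70 without WT-2404. Ctsd, cathepsin D, stood at -0.88 (SE 0.33, edgeR adjusted p = 0.149) with all KO libraries below all WT libraries, and at -0.37 (edgeR adjusted p = 0.634) without WT-2404. Ctsl, cathepsin L, which can inactivate trypsinogen, stood at -0.17 (SE 0.29), and at 0.0073 without WT-2404. The cathepsins are lysosomal enzymes of many cell types, macrophages among them. The macrophage marker sums given above were also highest in WT-2404, and their part here was not tested.

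Ctrc, chymotrypsin C, which can degrade trypsinogen, had counts split in a way that did not follow the genotype. In GENCODE M21 its span (chr4:141814962-141846359, minus strand) covers that of the digestive enzyme gene Cela2a (chr4:141814962-141826160, minus strand). Cela2a had more counts than Ctrc in every library, and how reads of the shared stretch were assigned was not tested. Ctrc had 9009 CPM in Het-2066, 11503 in KO-2070 and 4701 in KO-2124, where Cela2a had 102676, 142453 and 53792 CPM. In the other Het and KO libraries Ctrc had 134 to 252 CPM and Cela2a 54291.5 to 121447 CPM. Cela2a thus did not show the split. In WT, Ctrc had 1.47, 117 and 212 CPM. The Ctrc estimate for KO against WT, 5.23 on the log2 scale, came with an SE of 2.25 (edgeR adjusted p = 0.195). The summed trypsinogen share in these 3 libraries was 10.3%, 11.4% and 8.80%. In the other 4 Het and KO libraries it was 10.8% to 11.8%, so 2 of the 3 lay below these. KO-2124 also had the lowest share of other digestive enzymes among the Het and KO libraries, at 53.8%. A link between Ctrc and the trypsinogen counts was not tested. F2rl1, a receptor that trypsin cleaves, had 10.8, 10.6 and 5.57 CPM in WT and 2.63 to 4.64 CPM in KO (log2 fold change -1.16, SE 0.28, edgeR adjusted p = 0.116). Of these genes, Spink1 (1.81), Ctsb (-1.69), Ctsd (-1.09), A2m (-3.17) and F2rl1 (-1.40) passed edgeR's adjusted threshold for KO against WT once WT-2067 was left out, a fit that called 13.6% of all genes. For Het against WT, Ctsb (-1.58) and F2rl1 (-1.20) did, where 8.17% of all genes were called. Tmprss15, which encodes enteropeptidase, had 1 count in KO-2126 and 0 in the other 9 libraries, where 3 counts would be at most 0.256 CPM before scaling.

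**Figure D5:**
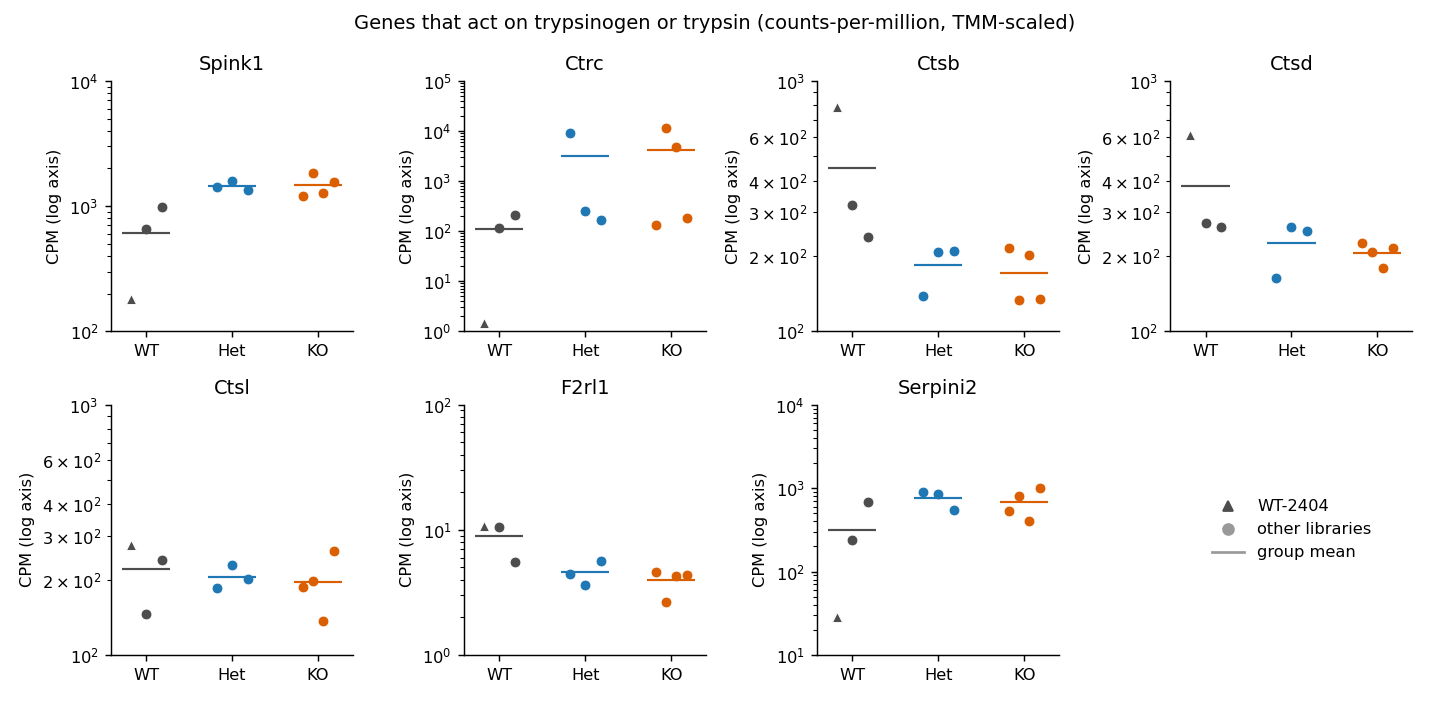
CPM (TMM-scaled, log axis) of 7 genes whose products act on trypsinogen or trypsin, by group, with the triangle for WT-2404, circles for other libraries and a line for the group mean. Spink1 lies between 182 and 988 CPM in WT and between 1204 and 1829 CPM in Het and KO, and Ctrc splits into 3 high and 7 low libraries.

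Members were compared with one another over the 10 libraries as Pearson correlations of log2 CPM, given as descriptions since all points share the libraries and WT-2404 lies far from the rest. Prss2 and 2210010C04Rik had r = 0.993, Prss2 and Try4 0.985 and Try4 and 2210010C04Rik 0.992. Try4 and Try5, the closest pair by sequence, had r = 0.742, and 0.907 without WT-2404. Among all other genes tested, those most like the summed trypsinogen counts were Cpa1 (r = 0.996), Chst2, Cel, Cpb1, Egf, Rnase1, Klb, Klk1, Cuzd1 and Slc35c2 (0.991). Of these 10 genes, 5 are in the list of other digestive enzymes. Without WT-2404 their r was 0.973 to 0.987, and 0 of the 10 stayed among the first 10, so the choice of names rests on that library. The gene most like each member was Cpb1 for Prss2 (r = 0.997), Ero1lb for 2210010C04Rik (0.996), Cel for Try4 (0.995), Srr for Try5 (0.975), Reg1 for Try10 (0.991), Smyd2 for Prss3 (0.978) and Trim27 for Prss1 (0.942).

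Promoters follow for the 3 members that moved most closely together, as the 100 bases before the RefSeq gene start (GRCm38.p6), 5′ to 3′ on the gene's strand, with TATAAA, the core of a TATA box, in capitals.
Prss2, chr6:41521676-41521775, plus strand: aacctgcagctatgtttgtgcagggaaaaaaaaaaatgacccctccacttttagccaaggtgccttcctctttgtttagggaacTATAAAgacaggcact
2210010C04Rik, chr6:41035510-41035609, minus strand: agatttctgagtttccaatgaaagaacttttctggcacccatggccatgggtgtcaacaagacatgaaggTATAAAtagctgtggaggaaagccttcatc
Try4, chr6:41302172-41302271, plus strand: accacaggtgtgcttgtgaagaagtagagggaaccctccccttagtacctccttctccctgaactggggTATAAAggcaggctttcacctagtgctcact
RefSeq promoters were at hand for 5 of the 7 members, the others being Try5 and Try10. TATAAA on the gene's strand was found in the 250 bases before the start of all 5, against 7.59% of 32851 promoters of that length. CACCTG on either strand, an E-box form, was also found in all 5, against 17.2% of promoters, and TTTCCC on either strand in Prss1 and Prss2, against 22.0%. TATAAA and CACCTG were also found before the neighbours Gm5771, Gm10334 and Gm2663, and TTTCCC before Gm5771 and Gm2663. The matches are therefore not particular to the members. How alike these promoters are to one another was not measured, so the matches may not be separate ones. They describe letters and were not measured as binding sites.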

How the data were processed

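Per the labels' protocols, RNA was extracted from frozen tail pieces of pancreas and turned into libraries by a strand-preserving mRNA kit. The authors deposited raw counts per gene symbol, with 1 column per mouse. The submitters' processing notes name DRAGEN, STAR, Cufflinks and mm10, without roles. The annotation and the use of strand in counting are not given in the sources used here. A further part of the genotype, shared by all groups, is not reported here.

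The 2 summary rows without a gene were left out of library sizes, and reads outside genes made up 2.59% to 8.71% and ambiguous reads 0.101% to 0.584% of all counts. Replicates are separate mice, so p-values measure the spread between them. edgeR 4.0.16 (R 4.3.3) fitted all 10 libraries at once without covariates (filterByExpr, TMM factors of 0.596 to 3.53, robust quasi-likelihood test, Benjamini-Hochberg adjustment over 13688 genes, threshold 0.05), after a test on simulated data. DESeq2 1.42.0 was an alternative. Shares were compared by exact permutation (SciPy 1.17.1, two-sided by doubling the smaller tail). Sequences came from GENCODE M21 and RefSeq, coding sequences were aligned with Biopython 1.88. All 7 members were described in full, and other genes were named from lists or as most like the members. Members, lists and this rule were chosen with earlier results of these data known.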

Additional observations from a re-analysis of the deposited data

How the results depend on the processing

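No trypsinogen gene was called in the main fit, with median-ratio size factors, with library size alone, with scaling from genes outside the enzyme lists, without the filter, with the enzyme covariate, with only the 2 groups compared, or with DESeq2. Leaving out 1 library at a time gave 0 to 2 called members for KO against WT and 0 to 2 for Het against WT, 2 only without WT-2067. With library size alone, signs turned for Prss1 (-0.12) and Try5 (-0.50) in KO against WT, Try5 (-0.43) in Het against WT and Prss3 (0.037) in KO against Het. With the enzyme level as a covariate, KO against WT turned to -0.28 for Prss1, -0.22 for Prss2, -0.12 for Try4 and -0.14 for 2210010C04Rik. Het against WT turned to -0.084, -0.10, -0.32 and -0.11 for the same genes, and KO against Het to 0.010 for Prss3. The cause was not tested. Without 1 library, KO against Het ran from -0.61 to 0.37 for Prss1, -0.35 to 0.053 for Prss2, -0.27 to 0.24 for Prss3, -0.059 to 0.45 for Try4, -0.27 to 0.17 for Try5 and -0.25 to 0.15 for 2210010C04Rik.

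As no share test can pass 0.05, the number of the 21 comparisons with separate ranges was followed instead, a choice made after seeing the data. It was 2, and 2 to 5 without 1 library. Without 1 library, the share difference ran from -1.98 to 0.196 points for Prss2 (Het minus WT), from -0.743 to 0.935 for Try5 and from -0.820 to 1.92 for 2210010C04Rik (both KO minus Het). With counts outside the other digestive enzymes as the total, the summed trypsinogen share was 11.04 points higher in KO and 12.0 points higher in Het than in WT. As a difference of mean log2 CPM over genes, the ratio to other enzymes was -0.72 for Het minus WT. The ratio without Try5 was added after seeing the data. No paired analysis was possible because the groups share no mouse numbers. Group sizes of 3 and 4 mice limit these comparisons more than depth does.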
